A study of Mus musculus with 84 samples.

Results

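Among airway sensory neurons of the mouse vagal ganglia with little Trpv1 and little Prdm12, 11 of 20 carried the mechanically gated channel gene Piezo2, and these 11 neurons are described here against the 9 with little Piezo2. All 84 neurons of the series came from C57BL/6 mice, were traced from the airways with the lipophilic dye DiI (2%), and were collected and sequenced 1 by 1 after amplification of their mRNA. No treatment or genotype separates them, so the groups below were chosen by measured levels and not by labels. Levels are in CPM, the reads of a gene per 1000000 reads counted in that neuron. Neurons were kept with 5000000 or more counts (72 of 84), 5000 or more genes at 10 CPM or more (38 of those 72), Prdm12 below 10 CPM (6 of the 38 removed) and Trpv1 below 10 CPM (12 more removed). The remaining 20 were split by Piezo2, at 10 CPM or more (called Piezo2 neurons) or below (called low neurons).

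Piezo2 encodes a very large membrane channel that opens when the membrane is stretched and closes again quickly while the stretch lasts. In sensory ganglia it is known from touch and body-position neurons, and in vagal airway neurons from the sensing of lung inflation. Vagal airway neurons lie in the nodose ganglion, which arises from epibranchial placodes, or the jugular ganglion, which arises from the neural crest. Prdm12 is a transcription factor of crest-derived nociceptor lineages, and Trpv1, the capsaicin receptor, marks many unmyelinated chemically sensitive fibres.

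The labels do not say which ganglion a neuron came from, and the markers fitted a nodose origin only in part. Ntrk2, which encodes the neurotrophin receptor TrkB, was at 10 CPM or more in all 11 Piezo2 neurons and all 9 low neurons. Hoxb5, a homeobox gene, was found in 10 of 11 and 9 of 9, and the ATP-gated channel P2rx2 in 6 of 11 and 9 of 9. Phox2a, also listed as a nodose gene, was found in 0 of 11 and 1 of 9. Among genes listed for the jugular ganglion, Runx1 was found in 11 of 11 and 8 of 9 neurons and Prrxl1 in 6 of 11 and 4 of 9. Tac1, also listed there, was more often at 10 CPM or more in Piezo2 neurons, by 46.5 percentage points, and is described further on. The neurons are therefore called here by the rule that selected them.

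Each sample is 1 neuron and no label names the animal it came from, so a group counts as 1 sample, and no p-value or standard error is given. Total counts ran from 10274511 to 20063519 in the 20 neurons, with medians of 14838526 in Piezo2 and 14597717 in low neurons. Genes at 10 CPM or more numbered 8068 (median, 5885 to 8599) in Piezo2 and 7923 (5231 to 8524) in low neurons. The lower quartiles lay further apart, at 6138.5 and 7186. The summed level of 10 sensory neuron markers overlapped, at 17051 CPM (9213 to 20580) in Piezo2 and 15025 CPM (9802 to 22190) in low neurons. Of 12 satellite glia markers, 11 reached 10 CPM in at least 1 neuron of each group and Hepacam in none. Their summed level was 403 CPM (40.8 to 10584) in Piezo2 and 1729 CPM (162 to 5472) in low neurons. Its part in the results was not tested beyond leaving out the neurons highest in these markers, as given at the end. Neuron identifiers run in 3 blocks parted by wide gaps, which the labels do not call batches, and hold 3, 2 and 6 Piezo2 and 3, 1 and 5 low neurons.

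Piezo2, which chose the groups, lay far from the limit on its upper side. In Piezo2 neurons its lowest level was 78.4 CPM, its median 225.6 CPM and its highest 600.1 CPM. In low neurons its median was 0.253 CPM and its highest level 9.17 CPM, and AM065 had none. The neuron just above the limit was AM239 at 78.4 CPM, and 4 low neurons lay just below it, AM006 at 9.17, AM022 at 6.78, AM019 at 6.43 and AM267 at 5.27 CPM. The other 5 low neurons had 0.253 CPM or less. At 152 reads in AM006, 74 in AM022, 106 in AM019 and 77 in AM267, these levels stood well above single reads. The edges of the other filters were as wide, since the highest Trpv1 among the 20 was 1.58 CPM and the lowest in a removed neuron 15.02 CPM, and Prdm12 was at most 0.259 CPM below its limit and at least 22.04 CPM above it. For the number of genes the nearest values were 5231 inside and 4870 outside.

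AM249 stood apart among the Piezo2 neurons. It had 156 CPM of Piezo2, but Ntrk3, Kcnv1, Ndp, Kcnh1 and Mfap5 were at 0, Tac1 at 0.389 CPM and Hoxb5 at 4.09 CPM, where the other 10 Piezo2 neurons had at least 38.4 CPM of Hoxb5. Its Calca, the calcitonin gene-related peptide gene, was the highest of the Piezo2 neurons at 129 CPM, and its Nefh the lowest at 255.1 CPM. Without it, 1 named call fell under the limit (Itgav), and Rab3b, found in 4 of the other 10 Piezo2 neurons, was no longer counted. The other named calls that could be counted kept their side of the limit.

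In the comparison across genes, a gene was called when its share of neurons at 10 CPM or more differed by 40 percentage points or more. Of all genes, 9542 reached that level in 5 or more of the 20 neurons; of these, 133 (1.39%) were more often detected in Piezo2 neurons and 117 (1.23%) less often. A difference of 60 points or more was reached by 10 genes in the higher direction (0.105%) and 9 in the lower (0.0943%). The median difference over all genes was 0. Most of these calls were of weakly expressed genes near the limit: 118 of the 133 had a median under 50 CPM in Piezo2 neurons and 112 of the 117 a median under 50 CPM in low neurons. With detection set at 5 CPM only 52 of the 133 and 39 of the 117 were called again, at 20 CPM 44 and 40, and with TMM scaling of the totals 49 and 34. The Piezo2 neurons AM234, AM249, AM272 and AM273, with 5885 to 6285 genes, held 6 to 20 of the 117, and the other Piezo2 neurons 40 to 57. Of the 133 they held 63 to 83, and the others 93 to 116. In neurons with 7000 or more genes, 111 of the 133 and 70 of the 117 were called again. What the number of genes contributed to the calls was not tested. A gene found in no low neuron had to be in 5 or more Piezo2 neurons to be counted, and so had to pass. Of the 133, 18 were of this kind. Likewise a gene in no Piezo2 neuron had to be in 5 or more low neurons and so had to pass, as 1 of the 117 did. These counts cannot be set against each other, since genes in fewer low neurons could pass 40 points without being counted. With genes in 1 or more neurons counted, the 133 stayed and the 117 became 137. The single genes below are therefore given with their levels, and, for the steadiest, with the number of alternative settings under which they passed.

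**Figure D1:**
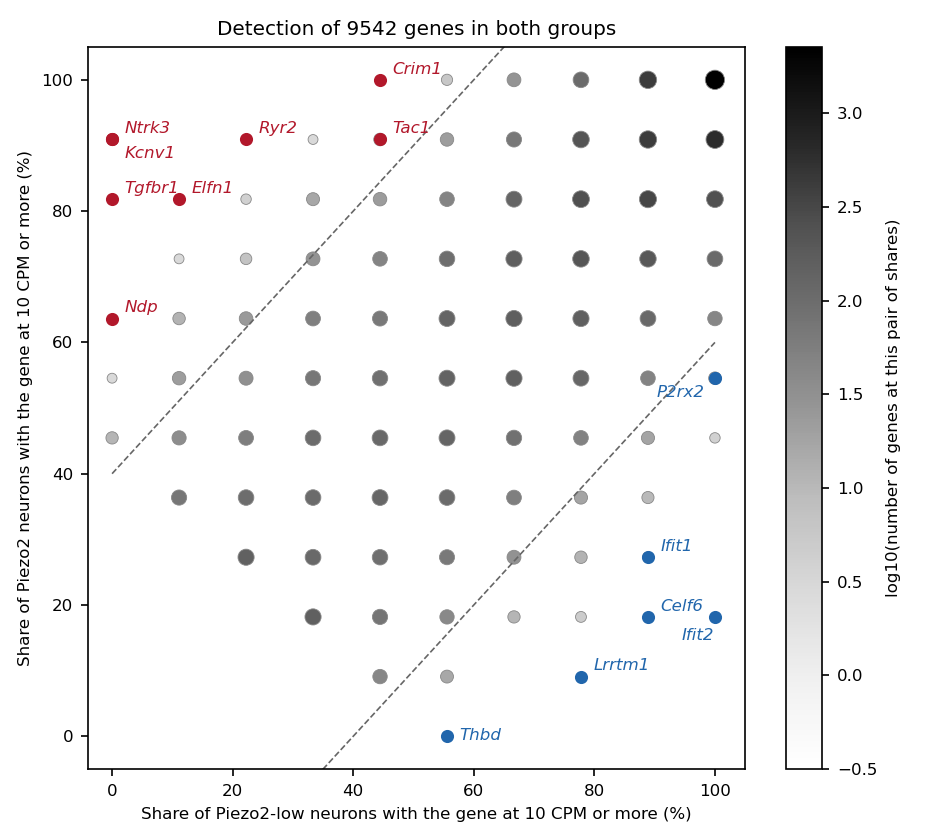
Share of neurons with a gene at 10 CPM or more, low neurons on the x axis and Piezo2 neurons on the y axis, both in percent. Grey points stand for all genes that share a pair of values (shade and size by log10 of their number), coloured points for named genes, and dashed lines mark a difference of 40 points; Ntrk3 and Kcnv1 overlie each other at 90.9% against 0%.

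Over all 20 neurons 1 gene had groups that did not overlap, Mrpl2, a mitochondrial ribosomal protein gene named here after its values were seen, with a median of 20.7 CPM against 89.2 CPM. By share of neurons the largest difference, 90.9 points, was that of Ntrk3 and of Kcnv1, described further on. Ntrk3 encodes TrkC, the receptor for neurotrophin-3. It was at 10 CPM or more in 10 of 11 Piezo2 neurons (90.9%, exact 95% Clopper-Pearson interval 58.7 to 99.8%). Among low neurons it was so in 0 of 9 (same interval, 0 to 33.6%). These intervals cover counting error only. They treat neurons as independent, though their animals are not known, and do not allow for the choice of the largest difference. The level ran from 0 to 533 CPM in Piezo2 neurons with a median of 196 CPM, and from 0 to 2.59 CPM in low neurons with a median of 0.165 CPM. AM249 alone overlapped the low neurons, and the lowest of the other 10 was AM273 at 18.5 CPM. Ntrk3 passed in 16 of the 17 alternative settings that could end the call of some named gene. Some of them could not end that of Ntrk3, such as a limit of 50 points or leaving out AM249. By block of identifiers Ntrk3 was found in 3 of 3, 2 of 2 and 5 of 6 Piezo2 neurons against none of 9 low neurons. Ntrk3 lies on chromosome 7 (78175959 to 78738012, minus strand, GENCODE M21, GRCm38), and other-strand genes 4921513I08Rik and Gm9885 overlap it, so reads from either strand cannot be told apart where the strand setting is not known.

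Among receptors of other kinds, 1 of 15 listed cytokine receptors counted was called. None was called of 12 receptors of inflammatory mediators and of 20 of fast transmitters and GABA. Over all genes counted 1.39% were more and 1.23% less often detected. Counts of 0 are near those shares and are not a result about these receptors. Tgfbr1, the type I receptor for transforming growth factor beta, was detected in 9 of 11 Piezo2 neurons and 0 of 9 low neurons. Its level was 21.6 CPM (0 to 74.2) in Piezo2 neurons and 0.664 CPM (0 to 7.85) in low neurons, and the 2 Piezo2 neurons without it were AM273 and AM272. Tnfrsf11a, which encodes RANK, the receptor for the cytokine RANKL, is outside the list. It was found in 6 of 11 and 0 of 9 neurons, with a median of 18.4 against 0.121 CPM. Htr1d, a serotonin receptor coupled to inhibitory G proteins, reached the limit in 7 of 11 against 2 of 9, and its medians were close, at 11.6 and 7.33 CPM. Its difference was -9.09 points with detection at 1 read and -2.02 points, close to none, at 50 CPM.

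Ion channels made up a second group. Kcnv1 encodes Kv8.1, a potassium channel subunit that forms no channel alone and changes the gating of the Kv2 family. It was found in 10 of 11 Piezo2 neurons, at a median of 85.2 CPM and up to 475 CPM, and in 0 of 9 low neurons. Here 2 low neurons lay close under the limit, AM253 at 9.99 and AM022 at 9.71 CPM, while the lowest Piezo2 neuron apart from AM249 had 12.7 CPM. The call was kept in 16 of those 17 settings, some of which could not end it either. Kcnb2, the gene of the Kv2 family subunit Kv2.2, was found in 11 and 8 neurons, with a median of 326 CPM (60.8 to 573) in Piezo2 and 74.02 CPM (0.247 to 280.2) in low neurons; it was chosen after its values were seen.

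Kcna4, which encodes the rapidly inactivating channel Kv1.4, was found in 7 of 11 Piezo2 neurons and 1 of 9 low neurons. Its median was 24.4 CPM (1.95 to 214.3) against 1.15 CPM (0 to 16.97), and the low neuron AM246 at 16.97 CPM lay above the Piezo2 neurons AM069, AM300, AM272 and AM239. Kcnh1, the ether-a-go-go channel Kv10.1, was found in 7 of 11 against 1 of 9 neurons, with a median of 17.6 against 0 CPM. Kcnh1 shares its locus with Hhat on the other strand. In the other direction, Kcnip2, an accessory subunit of the A-type Kv4 channels, was found in 2 of 11 Piezo2 neurons and 6 of 9 low neurons (3.77 against 18.4 CPM). Of 44 genes in the list of voltage-gated potassium channels and their subunits, 27 entered the count, 3 were more often and 1 less often detected, where 1.39% and 1.23% of all genes were. The median difference was 4.04 points.

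Ryr2, a calcium release channel of the endoplasmic reticulum, separated the groups by level as well as by detection. It was at 32.6 CPM (8.48 to 66.6) in Piezo2 neurons, where 10 of 11 passed 10 CPM, and at 2.01 CPM (0 to 19.9) in low neurons, where 2 of 9 passed. In a pair made of 1 Piezo2 and 1 low neuron, the Piezo2 neuron was the higher in a share of 0.95, a measure called rank separation below. AM249 had the highest Ryr2 of all. Gm26956 overlaps Ryr2 on the other strand. Over all genes, 126 (1.32%) had a rank separation of 0.8 or more and 103 (1.08%) of 0.2 or less, and 29 of the former were among the 133 called by detection.

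Asic1, an acid-sensing channel, and P2rx6, an ATP-gated channel subunit, were each found in 6 of 11 against 1 of 9 neurons. Both were weak, with medians of 11.7 and 11.6 CPM in Piezo2 neurons. Their differences were gone at a higher detection limit, at -2.02 points each (Asic1 at 50 CPM, P2rx6 at 20 CPM). P2rx2, the subunit that joins P2rx3 in the ATP receptors of nodose neurons, moved the other way. Every low neuron had 16.5 CPM or more of it, with a median of 68.1 and a highest value of 198 CPM. In Piezo2 neurons the range was 0.0924 to 146 CPM and the median 10.7 CPM, and 6 of 11 passed 10 CPM. P2rx3 itself was found in 5 of 11 and 5 of 9 neurons, at medians of 9.58 and 11.2 CPM.

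**Figure D2:**
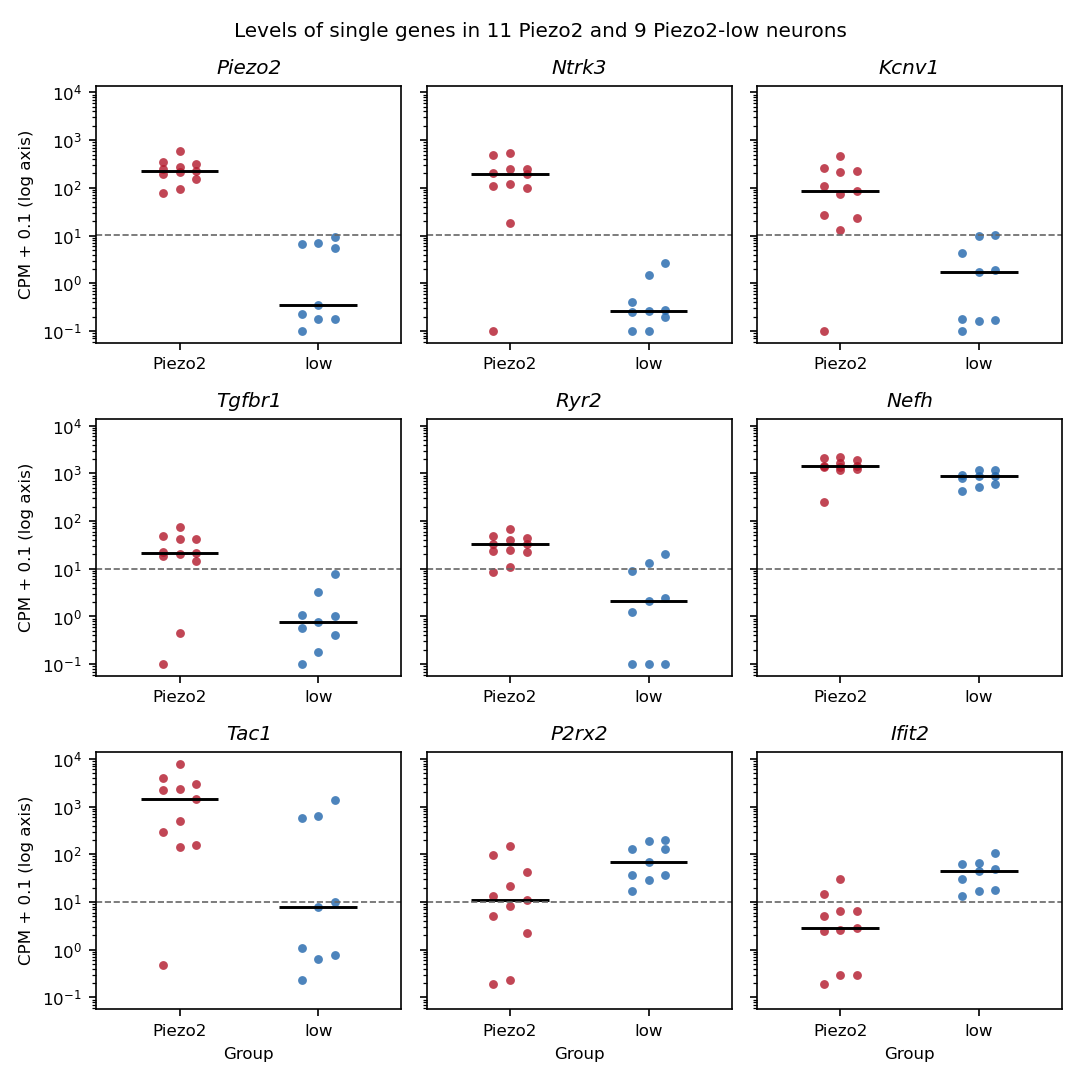
CPM of 9 genes in each neuron (points, y axis on a log scale with 0.1 CPM added), for 11 Piezo2 and 9 low neurons; black lines are medians and the dashed line is 10 CPM. Ntrk3 is above 10 CPM in all Piezo2 neurons except 1 and in no low neuron, whereas Ryr2, Nefh, Tac1 and P2rx2 differ in level with overlap.

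Secreted proteins and peptides followed. Ndp, which encodes norrin, a ligand of the Wnt receptor Frizzled-4, was found in 7 of 11 Piezo2 neurons and 0 of 9 low neurons, with a median of 35.3 CPM (0 to 96.8) against 0 CPM (0 to 7.53). Tac1, the precursor of substance P and neurokinin A, was at 1468 CPM (0.389 to 7773) in Piezo2 neurons and 7.61 CPM (0.133 to 1395) in low neurons. All Piezo2 neurons except AM249 had at least 144 CPM of Tac1, and 3 low neurons, AM267, AM246 and AM019, had 586 CPM or more. Mfap5, a microfibril protein of the extracellular matrix, was found in 9 of 11 against 2 of 9 neurons (57.9 against 0.121 CPM). Crim1, a membrane protein that binds bone morphogenetic proteins, was found in 11 of 11 against 4 of 9 (47.9 against 8.13 CPM), and Vwc2l, a secreted protein of the same signalling, in 8 of 11 against 1 of 9. Of 12 neuropeptide genes counted, Tac1 alone passed the limit, where 1.39% of all genes passed in its direction.

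The promoters of Tgfbr1, Ryr2, Ndp, Kcna4 and Tac1 are shown because these genes were more often detected in the Piezo2 neurons and the RefSeq table (GRCm38.p6) holds their start sites. Each run is the 250 bases before the annotated start, read 5′ to 3′ along the gene. Capitals mark a match on either strand to the GC box GGGCGG, the TATA motif TATAAA, or the Runx core TGTGGT or TGCGGT.
Tgfbr1, first start (chr4:47352972-47353221, plus strand): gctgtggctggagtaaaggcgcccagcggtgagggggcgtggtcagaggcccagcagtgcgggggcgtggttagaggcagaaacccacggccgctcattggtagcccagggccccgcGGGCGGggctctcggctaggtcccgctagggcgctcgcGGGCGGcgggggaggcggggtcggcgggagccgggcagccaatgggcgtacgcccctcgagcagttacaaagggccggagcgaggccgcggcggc
Tgfbr1, second start (chr4:47385966-47386215, plus strand): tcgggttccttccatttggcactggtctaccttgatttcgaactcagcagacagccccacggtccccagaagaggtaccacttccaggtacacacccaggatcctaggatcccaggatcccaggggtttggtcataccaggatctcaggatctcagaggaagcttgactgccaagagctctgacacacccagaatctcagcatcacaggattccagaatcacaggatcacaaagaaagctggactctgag
Ryr2 (chr13:12106946-12107195, minus strand): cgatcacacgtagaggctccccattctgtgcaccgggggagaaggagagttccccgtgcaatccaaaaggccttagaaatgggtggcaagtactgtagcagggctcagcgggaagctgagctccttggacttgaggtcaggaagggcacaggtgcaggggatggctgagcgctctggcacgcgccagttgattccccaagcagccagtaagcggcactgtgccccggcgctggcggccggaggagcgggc
Ndp (chrX:16911775-16912024, minus strand): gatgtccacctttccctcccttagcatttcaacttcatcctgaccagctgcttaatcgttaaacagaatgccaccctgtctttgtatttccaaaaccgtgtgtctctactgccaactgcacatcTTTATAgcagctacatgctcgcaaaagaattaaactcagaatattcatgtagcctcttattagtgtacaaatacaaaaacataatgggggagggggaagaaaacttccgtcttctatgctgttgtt
Kcna4 (chr2:107290339-107290588, plus strand): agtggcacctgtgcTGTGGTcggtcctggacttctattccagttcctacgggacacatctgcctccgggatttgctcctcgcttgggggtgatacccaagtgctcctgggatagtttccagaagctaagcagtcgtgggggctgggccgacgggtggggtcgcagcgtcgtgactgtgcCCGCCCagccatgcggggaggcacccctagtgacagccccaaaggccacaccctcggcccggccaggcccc
Tac1 (chr6:7554811-7555060, plus strand): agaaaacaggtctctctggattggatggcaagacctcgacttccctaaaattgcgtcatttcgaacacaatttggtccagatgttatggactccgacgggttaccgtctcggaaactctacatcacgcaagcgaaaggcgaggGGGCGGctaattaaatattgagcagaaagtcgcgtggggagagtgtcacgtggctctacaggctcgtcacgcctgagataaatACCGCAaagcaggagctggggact
The first Tgfbr1 run (74.8% G and C) held 2 GC boxes, and neither the second (52.8%) nor the Ryr2 run (63.2%) held a match. The Ndp run held 1 TATA match and no other, with 41.2% G and C. Kcna4 (65.2% G and C) and Tac1 (51.2%) each held 1 GC box and 1 Runx core. Of 32851 RefSeq promoter windows of this length, 32.7% held the GC box, 12.4% the TATA motif and 18.6% the Runx core. Ntrk3 and Kcnv1 are named only.

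Synaptic and signalling genes were the next group. Elfn1, a postsynaptic protein that binds metabotropic glutamate receptors across the synapse, was found in 9 of 11 Piezo2 neurons and 1 of 9 low neurons (17.4 against 4.39 CPM). Of 37 counted members of the synaptic release list 3 passed in the higher direction, Rph3a, Sv2b and Rab3b, where 1.39% of all genes did, and the median difference of the list was 0. Sv2b, a synaptic vesicle glycoprotein, was at 87.9 CPM in Piezo2 neurons and 7.42 CPM in low neurons, with 1 low neuron, AM022, at 236.9 CPM above all Piezo2 neurons. Rab3b, a vesicle GTPase, was found in 5 of 11 against 0 of 9 and so had to pass once counted, and Rph3a, a Rab3 effector, in 8 of 11 against 2 of 9.

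Among enzymes of signalling, Ppm1j, a serine and threonine phosphatase, was found in 10 of 11 against 2 of 9 neurons (44.6 against 0.667 CPM). AM006, the low neuron with most Piezo2, had 68.2 CPM of Ppm1j, and AM003, a Piezo2 neuron, had 2.43 CPM. Plpp4, a phospholipid phosphatase, was found in 9 of 11 against 2 of 9 neurons (51.1 against 0.241 CPM) and passed in 16 of the 17 settings. Rgs6 and Grk3, which end signalling by G protein-coupled receptors, were detected in 7 and 6 of the 11 Piezo2 neurons and in 1 and 0 of the 9 low neurons, although 1 low neuron had 9.99 CPM of Grk3. Plcd4, a phospholipase C, was found in 7 of 11 against 1 of 9. The remaining genes named by the size of their difference were Minar1, Urb1, Pcyox1l, Cachd1, Wdfy1, Ift88, Ercc6, Palmd and Ints12, with differences from 52.5 to 61.6 points and medians of at most 33.95 CPM in Piezo2 neurons.

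**Figure D3:**
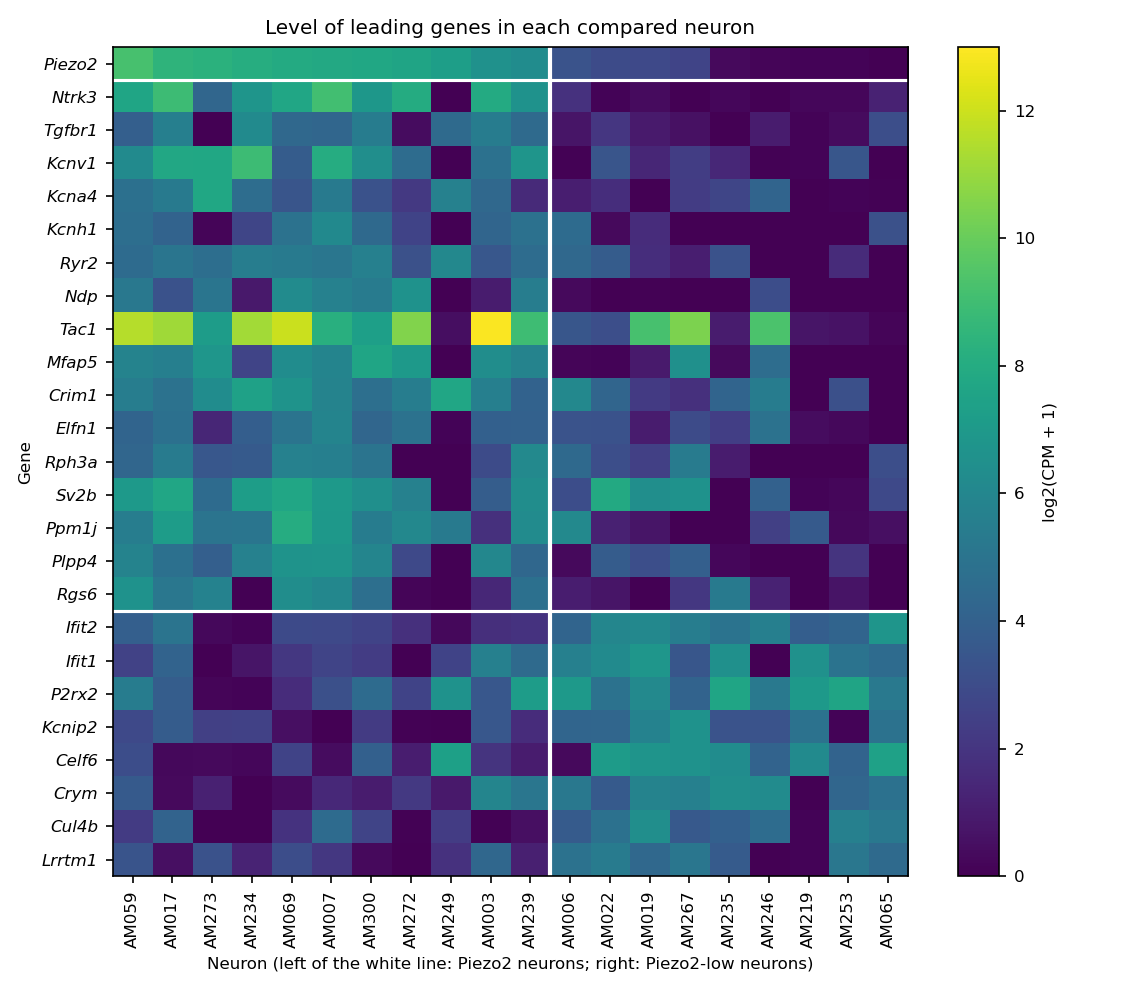
Colour gives log2(CPM + 1) of 25 genes (rows) in each of the 20 neurons (columns), ordered by Piezo2, with Piezo2 neurons left of the vertical white line. Rows between the horizontal lines are genes higher in Piezo2 neurons and rows below them genes lower; AM249 is dark in Ntrk3, Kcnv1, Ndp and Tac1.

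The genes less often detected in Piezo2 neurons were led by Ifit2, an interferon-induced antiviral RNA-binding protein. All 9 low neurons had 13.5 CPM or more, with a median of 43.8 and a highest value of 107 CPM, and 2 of 11 Piezo2 neurons, AM017 at 30.5 and AM059 at 14.4 CPM, passed the limit. The median of Piezo2 neurons was 2.73 CPM and the rank separation 0.05. Ifit1, of the same family, was found in 3 of 11 against 8 of 9 neurons (4.95 against 48.99 CPM). Other interferon-induced genes were looked at after these values were seen. Ddx58, which encodes the viral RNA sensor RIG-I, passed the limit in the same direction, in 5 of 11 against 8 of 9 neurons (9.16 against 20.2 CPM, a difference of -43.4 points). Oasl2 was found in 9 of 11 and 9 of 9 neurons, Ifih1 in 3 of 11 and 5 of 9, Irf1 in 6 of 11 and 7 of 9, and Rsad2 in 3 of 11 and 2 of 9, and none of these passed. Ifit3 and Isg15 did not enter the count.

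Celf6, an RNA-binding regulator of splicing, was found in 2 of 11 Piezo2 neurons and 8 of 9 low neurons (1.08 against 79.6 CPM). The highest of the Piezo2 neurons was AM249 at 169 CPM, and the low neuron without it was AM006 at 0.241 CPM. Cul4b, the scaffold of a ubiquitin ligase, was found in 2 of 11 against 8 of 9 (2.79 against 22.9 CPM). Lrrtm1, a synaptic adhesion protein, was found in 1 of 11 against 7 of 9 (2.63 against 21.6 CPM); its gene lies within Ctnna2 on the other strand. Crym, a thyroid hormone-binding protein, was found in 3 of 11 against 8 of 9 (1.28 against 35.8 CPM).

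Thbd, the thrombin receptor thrombomodulin, was the 1 called gene found in no Piezo2 neuron (0 of 11 against 5 of 9). Such a gene had to pass once counted, and those in fewer low neurons were not counted. Itgav, the integrin alpha V gene, was found in 5 of 11 against 8 of 9 neurons and its difference reversed at 50 CPM. The other genes named in this direction were Dnajc14, Spen, Prpf38a, Zbtb24, Sergef, Ercc8, Tmcc2, Chkb, Pip5k1a, Gpank1, Cenpc1 and Tsga10. Their medians in low neurons were between 12.8 and 47.5 CPM.

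Of 17 other mechanically gated channel genes, 12 reached 10 CPM in at least 1 of the 20 neurons and 6 entered the count. None of the 6 was called, with a median difference of -20.7 points, where 1.39% and 1.23% of all genes were called. With 6 genes counted, a count of 0 is near those shares and is not a result about these genes. Tmem63b, an osmosensitive channel, was found in 9 of 11 and 9 of 9 neurons (39.98 and 23.9 CPM), and Tmem63c in 3 of 11 and 6 of 9. The stretch-sensitive potassium channel Kcnk2 (TREK-1) was found in 8 of 11 and 6 of 9 neurons (32.8 and 35.4 CPM) and Kcnk10 (TREK-2) in 0 and 2. Tmc7 was found in 7 and 6, Tmc6 in 6 and 7, Tmc3 in 1 and 0, Trpc1 in 6 and 7 and Pkd2 in 1 and 3. Piezo1, the close relative of Piezo2, was found in 1 of 11 and 1 of 9 neurons, at 14.9 CPM at most. Tmem63a and Tmem87a were each found in 0 of 11 and 1 of 9.

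Of 16 genes reported to bind or tune Piezo channels, 13 entered the count and 0 were called, with a median difference of 0, which is likewise near the shares of all genes. Mdfic, an auxiliary subunit of Piezo channels, was found in all 20 neurons, at 233 CPM (24.2 to 565) in Piezo2 and 94.6 CPM (37.2 to 492.7) in low neurons, with overlap throughout. Cdh1, which encodes E-cadherin, came nearest to the limit, in 9 of 11 against 4 of 9 neurons (46.6 against 2.73 CPM). Stom, a stomatin, was found in 8 and 6 neurons, Stoml1 in 11 and 9 and Stoml2 in 10 and 9. Tmem150c was found in 4 and 5, Tmem120a in 9 and 9, Mtmr2 in 10 and 8, Anxa6 in 11 and 9, Atp2a2 in 11 and 9, Pcnt in 4 and 2, Ctnnb1 in 7 and 6 and Gnas in 10 and 8.

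Genes of large myelinated fibres were present in both groups. Of 22 listed, 15 entered the count and 1, Ntrk3, was called, where 1.39% of all genes were in that direction. Differences ran from -28.3 to 90.9 points, with a median of 2.02. By rank separation 4 of the 15 stood at 0.8 or more, Nefh, Ntrk3, Cntnap1 and Cntn1, where 1.32% of all genes did. The median rank separation of the list was 0.64. Nefh, Cntnap1 and Cntn1, given next, are thus its highest members by rank and do not stand for the list. Nefh, the heavy neurofilament subunit, chosen after its values were seen, was at 1401 CPM (255.1 to 2201) in Piezo2 neurons and 895 CPM (437 to 1184) in low neurons, a rank separation of 0.91. AM249 had the lowest value, and the next Piezo2 neuron stood at 1204 CPM. Cntnap1, an axonal protein of the paranodal junction with myelin, was at 60.3 CPM (27.9 to 124) against 25.2 CPM (0.0824 to 39.8), and its binding partner Cntn1 at 686 CPM (221.03 to 1402) against 311 CPM (118 to 581). Pvalb and Runx3, genes of body-position neurons, were below 10 CPM in all 11 Piezo2 neurons and were found in 1 low neuron, AM006, at 85.4 and 46.5 CPM.

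Most other lists held few calls or none, where 1.39% of all genes counted were more and 1.23% less often detected. Counts of 0 in lists of this size are near those shares and are not a result about their genes. Of 34 sensory transcription factors counted, 0 were called and the median difference was 0; Ebf1 was at 311 and 349 CPM and Klf7 at 254.8 and 458 CPM. Of 9 genes of unmyelinated nociceptors counted, Tac1 alone was called, and of 8 neurotrophic factor genes Ntrk3 alone. Of 8 purinergic receptors, 1 was more and 1 less often detected. Among 7 sodium channel alpha subunits 0 were called, and Scn7a, a sodium-sensing channel that is also a Schwann cell gene, was at 931 CPM (552 to 2099) against 564 CPM (54.7 to 1018), a rank separation of 0.83. Of the myelin genes of Schwann cells, Prx, Mag and Cldn19 were below 10 CPM in all 20 neurons. The 10 Schwann cell markers summed to a median of 930 CPM in Piezo2 and 785 CPM in low neurons. Without Pmp22 and Egr2 the direction was the other way, and the remaining 8 summed to 48.5 CPM and 111 CPM. The ranges of the groups overlapped for both sums. Of 16 immediate early genes and 14 axon injury genes counted, 0 were called. Endothelial markers summed to medians of 0.469 and 1.03 CPM and leukocyte markers to 0.869 and 6.23 CPM.

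Over the 9542 genes counted, median correlations within and between the groups were close, which does not settle whether the groups stand apart. The median Spearman correlation was 0.649 between pairs of Piezo2 neurons, 0.659 between pairs of low neurons and 0.657 between the groups, given as a description since the neurons differ in depth and gene number. The most similar neuron was itself a Piezo2 neuron for 9 of 11 Piezo2 neurons, where 52.6% of the other neurons are of that group, and a low neuron for 6 of 9 low neurons, where 42.1% are. AM239, the Piezo2 neuron with least Piezo2, was most like the low neuron AM267 (0.749), and AM006, the low neuron with most Piezo2, was most like AM239 (0.692).

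Among the genes whose level followed Piezo2 most closely over the 20 neurons were Actr3b, Ryr2, Rassf4, Gpr37, Dlg2, Gm765, Pak1ip1, Cntnap1 and Kcna4, with Spearman correlations from 0.76 to 0.80. These values largely follow the split itself and are a description. Gm765, a protein-coding gene without a given name, was at 1159 CPM (0 to 2402) in Piezo2 neurons and 2.97 CPM (0.0665 to 663) in low neurons, in 10 of 11 against 3 of 9. Pak1ip1, which acts in ribosome assembly, was at 531 CPM (150.2 to 1932) against 164 CPM (124 to 396), and Actr3b, a subunit of the Arp2/3 actin complex, at 209 CPM (26.5 to 487) against 111 CPM (1.48 to 143). Within the 11 Piezo2 neurons, where Piezo2 itself spans 78.4 to 600.1 CPM, other genes led: Nfe2l2, Cdh12, Ablim1, Vps8, Abr, Snx25, Slc35b1, Zfp101, Taf1a and an unnamed gene model. The highest of the 9542, with 0.93, was that of Nfe2l2, a stress-response transcription factor; as the largest of so many correlations over 11 neurons it is a description only. Ntrk3 had a correlation of 0.70 over 20 neurons and 0.16 within the 11.

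Within identifier blocks, 82 of the 133 more often detected genes and 60 of the 117 less often detected genes had a difference of the same sign in each of the 3 blocks. Block by block, 110, 106 and 130 of the 133 kept the sign, and 97, 75 and 117 of the 117. These neurons made the calls, so the counts describe how evenly the blocks contributed. Ntrk3, Kcnv1 and Tgfbr1 were found in every Piezo2 neuron of the first and second blocks and in no low neuron of any block. Ifit2 was found in 3 of 3, 1 of 1 and 5 of 5 low neurons, and in 1 of 3, 1 of 2 and 0 of 6 Piezo2 neurons.

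Neurons that took no part in the comparison gave a separate reading of the same genes. Among 12 neurons with Trpv1 at 10 CPM or more, 3 had Piezo2 and 9 did not. There, 88 of the 133 genes (66.2%) were again more often detected with Piezo2, where 35.3% of all 9542 genes were, and 53 of the 117 (45.3%) again less often, where 26.3% of all genes were. The first result rested on AM070, a neuron with 173 CPM of Piezo2, 94.0 CPM of Trpv1, 248.3 CPM of Ntrk3, 122 CPM of Kcnv1, 47.5 CPM of Ndp, 22.2 CPM of Tgfbr1 and 3407 CPM of Tac1. Without AM070, 51 of the 133 (38.3%) kept the direction, where 31.6% of all genes were more often detected with Piezo2, and 64 (48.1%) took the other, where 34.5% of all genes were less often detected. With AM070, 30 of the 133 (22.6%) took the other direction, where 26.3% of all genes were less often detected. Of the 117, 47 (40.2%) took the other direction with AM070, a median difference of 0, and 42 (35.9%) without it, where 68 (58.1%) kept it. Shares were equal for 15 of the 133 and 17 of the 117 with AM070. A gene found in all or in none of these neurons cannot differ, and the called genes were chosen for being found in some neurons only. The shares of all genes are therefore not a like measure, and the 117 exceeded them in both directions. The other 2 Trpv1 neurons with Piezo2, AM018 at 332 CPM and AM020 at 11.6 CPM, had 1.53 CPM of Ntrk3 or less and 0.1 CPM of Kcnv1 or less. Among the 9 Trpv1 neurons without Piezo2, Ntrk3 was found in 2 and Kcnv1 in 2 others.

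Of 34 neurons with enough counts but fewer than 5000 genes, 6 had Trpv1 or Prdm12 at 10 CPM or more and were left aside, 4 of them with Piezo2. Of the other 28, 10 had Piezo2, at a median of 274 CPM, and 18 did not. Of the 133 genes 71 (53.4%) kept the direction there, near the 52.3% of all genes, and of the 117 genes 59 (50.4%), where 42% of all genes did. The other direction was taken by 49 of the 133 (36.8%) and 46 of the 117 (39.3%). Here too the shares of all genes are not a like measure. Ntrk3 was found in 5 of the 10 with Piezo2 and 1 of the 18 without, at medians of 108 and 0.71 CPM. Kcnv1 was found in 2 of 10 and 0 of 18, Tac1 in 8 of 10 and 8 of 18, Ryr2 in 2 of 10 and 1 of 18, and Tgfbr1 in 0 of 10 and 1 of 18. Celf6 was again less frequent, in 2 of 10 and 10 of 18, and Ifit2 was not, in 2 of 10 and 1 of 18. Of the 10 genes that were higher by 60 points or more, 9 kept the direction in the neurons with few genes. In the Trpv1 neurons 9 of the 10 kept it with AM070, but without AM070 1 did and 7 took the other direction. Of the 9 genes that were lower by 60 points or more, 5 kept the direction in the neurons with few genes and 3 in the Trpv1 neurons, or 5 without AM070.

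The 6 neurons with Prdm12 and 5000 or more genes all had Piezo2, at a median of 444 CPM. Ntrk3 was found in 5 of them (72.97 CPM), Kcnv1 in 4 (19.9 CPM), Kcnh1 in 6 (37.9 CPM), Ndp in 6 (22.99 CPM), and Ryr2 in 5 (48.5 CPM), while P2rx2 and Ifit2 were found in 0 of 6. Tac1 was found in 3 and Tgfbr1 in 2. Piezo2, Ntrk3 and Kcnv1 were all at 10 CPM or more in 10 of the 11 Piezo2 neurons and in 3 of these 6.

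**Figure D4:**
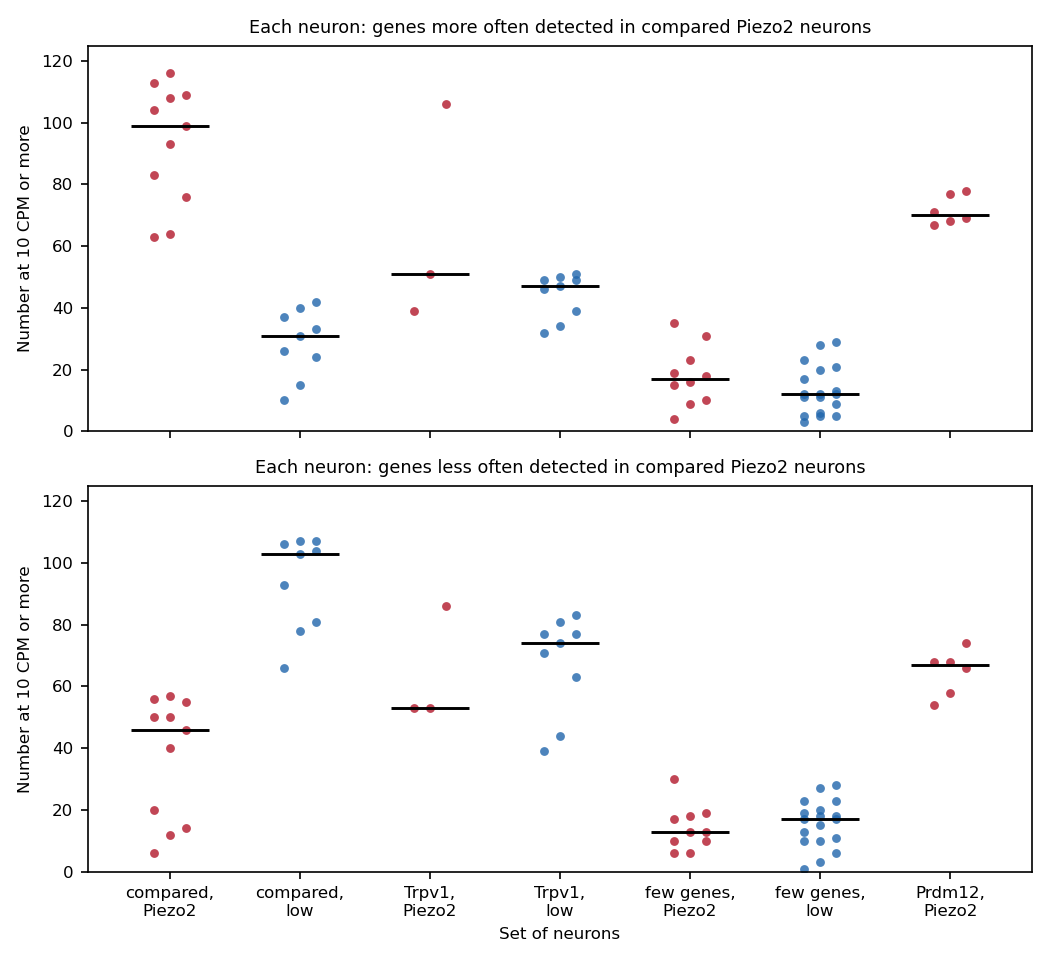
Number of the 133 more often detected genes (upper panel) and of the 117 less often detected genes (lower panel) at 10 CPM or more in each neuron (points; black lines are medians), by set of neurons; "few genes" means under 5000. The first 2 sets made the calls; among the rest, AM070 is the Trpv1 neuron with 106 of the 133.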

How the data were processed

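Read counts of 84 single neurons were used as the authors deposited them, as whole-number counts for 50686 Ensembl genes with no normalization. Reads were 76 bases long per the labels' protocols and were assigned to genes with featureCounts per the submitters' processing notes, which give no version. The strand setting, like the aligner, genome build and annotation, is not given in the sources used here. Because mRNA was amplified and no molecular identifiers are mentioned, reads are not independent molecules.

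Identifiers were matched to GENCODE M21 (GRCm38), and 50376 matched; the 310 others held at most 0.253% of any neuron's counts. CPM was computed from each column total, and 10 CPM stood for 103 to 201 reads in the 20 neurons. A gene was counted when it reached 10 CPM in 5 or more of them. No test was run between the groups, and no doublet caller was used, since each neuron was collected alone. Outliers within small sets of neurons were marked by Dixon's ratio, the gap to the next value over the range. The median TMM factors of the groups (edgeR 4.0.16, R 4.3.3) differed by -0.01 on the log2 scale, though the calls shared under that scaling were few. Analyses used Python 3.11.15, numpy 2.4.6, pandas 2.3.3, scipy 1.17.1 and matplotlib 3.10.9 with seed 1. Only the comparison of shares and the rank separation were checked on made-up data.

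Genes were named by rule: all detected mechanically gated channels and Piezo partners, up to 6 called members of each other list (or its 1 or 2 most frequent members), the 20 largest differences per direction outside the 38 lists, and the 10 highest correlations with Piezo2. Other named genes (Kcnb2, Nefh, Cntn1, Pvalb, Runx3, Calca, P2rx3, Prrxl1, Runx1, Ntrk2, Phox2a and interferon genes) were added after their values were seen or as ganglion markers. The members, the rule and the lists were chosen with earlier results of these data known. Alternatives covered detection and size limits, scaling, thinning to 10274511 counts, the neuron filters and left-out blocks; leaving out AM249 or AM070 was added after seeing the data. Some items that the rule names are not reported here.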

Additional observations from a re-analysis of the deposited data

Results flagged for a closer look

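Some neurons outside the comparison carried the leading genes of the Piezo2 neurons. Piezo2, Ntrk3 and Kcnv1 were all at 10 CPM or more in 1 of 3 Trpv1 neurons with Piezo2, 2 of 10 neurons under 5000 genes with Piezo2 and 3 of 6 Prdm12 neurons. Without Piezo2, Ntrk3 was found in 2 and Kcnv1 in 2 of 9 Trpv1 neurons, never in the same neuron, and in 1 and 0 of 18 neurons under 5000 genes. Among 12 neurons left out for fewer than 5000000 counts, 4 had Piezo2 at 10 CPM or more, and among the 12 Ntrk3 was found in 4 and Kcnv1 in 0. Among 9 Trpv1 neurons without Piezo2, AM021 lay apart from the others with 1.56 CPM of Piezo2. Chance marks about 1 in 20 groups of normally distributed values this way, and 28 group measures were looked at. These 9 neurons were chosen for low Piezo2 and some had none, so that rate may not hold for them.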

How the results depend on the processing

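No paired analysis was possible because the labels define 1 group of neurons. The 133 more often detected genes (1.39% of those counted) and the 117 less often detected genes (1.23%) became 18 (0.189%) and 3 (0.0314%) with detection at 1 read, 358 (3.75%) and 426 (4.46%) at 30 points, 40 (0.419%) and 41 (0.43%) at 50 points, and 383 (4.19%) and 231 (2.53%) in neurons with 7000 or more genes. Without the first block of identifiers 2.67% and 2.77% of the genes counted were called, and without the third 3.6% and 2.74%. The higher count alone moved to 87 (0.912%) at 5 CPM, 618 (6.9%) with low neurons below 1 CPM of Piezo2 and 220 (2.36%) with Trpv1 below 1 CPM. The lower count alone moved to 19 (0.194%) with 4000 and 76 (0.817%) with 6000 or more genes, 335 (3.67%) without the second block and 198 (2.23%) without the neurons highest in satellite glia markers. The cause of these changes was not tested. Without AM249 1.47% and 1.1% were called, sharing 109 and 87 genes with the reported calls. The genes that kept their direction outside the comparison numbered 141 in Trpv1 neurons, 119 without AM070 and 130 in neurons under 5000 genes.

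With TMM scaling 49 of the 133 and 34 of the 117 were called again. Of the 21 alternatives run on 59 named called genes, 4 could not end a call, since they kept the same neurons or only relaxed a limit. The other 17 gave 949 differences, 725 past the limit, 209 under it in the same direction or at 0, and 15 reversed. Ntrk3, Kcnv1, Gm765, Ifit1, Mfap5 and Plpp4 passed in 16 of 17. The limit of 50 points could not end these calls, whose differences were already larger than that. Reversed at 1 read were Htr1d and Gm765 (both -9.09 points, Piezo2 minus low), Itgav and Ercc8 (both 11.1), Lrrtm1, Crym and Spen (all 2.02) and Thbd (8.08). Reversed at 20 CPM were P2rx6 (-2.02) and Spen (9.09), and at 50 CPM Asic1 and Htr1d (both -2.02), Itgav and Pip5k1a (both 16.2) and Zbtb24 (9.09). Reversal was counted by sign alone, and 2.02 points in either direction is less than the share of 1 neuron in either group. In the compared neurons 3 reads stood for at most 0.292 CPM.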
